A study of Mus musculus with 18 samples.

Results

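Irradiated epidermis of mice that make osteopontin only from a keratin 14 transgene (K14-OPN) was compared with irradiated epidermis of wild-type mice (WT). The comparison used the 3 K14-OPN libraries and the 3 WT libraries made after ultraviolet B (UVB), 6 of the 18 libraries of the series, chosen by genotype and exposure alone. All of these mice were males aged 10 weeks. They were shaved 48 h ahead of 1 UVB exposure of 180 mJ per cm2, and dorsal skin was taken 24 h later. WT mice carry the normal osteopontin gene, Spp1. K14-OPN mice carry the transgene on an OPN-null background, so they differ from WT both in the null allele and in the transgene, and the keratin 14 promoter places osteopontin in keratinocytes of the basal layer. In the 4 irradiated OPN-null libraries (13 to 16) the null allele stands without the transgene. They served to estimate the spread and are given beside the comparison. Epidermis was scraped from the skin into TRIzol and polyA RNA was sequenced. Whether each library of a group came from its own animal is not stated in the labels. If some did not, part of the spread behind the p-values is technical.

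Osteopontin is a secreted, acidic glycoprotein that cells bind through integrins and through CD44. Thrombin and matrix metalloproteinases cut it and expose further integrin-binding stretches. It is known in skin and other tissues as a cytokine-like protein made by macrophages, T cells and stressed epithelia, and it draws in neutrophils and macrophages. After UVB, keratinocytes arrest and repair their DNA, release interleukin 1 and chemokines, and myeloid cells enter the skin from the blood.

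The 6 libraries held 6845989 to 26068614 counts on genes. They fell into 2 kinds by the small nuclear RNA gene Rn7sk and the mitochondrial leucyl-tRNA synthetase gene Lars2. K14-OPN 1 and WT 8 had 66654 to 229311 counts of Rn7sk against 1588 to 1997 of Lars2 (7SK-rich), and the other 4 had 295 to 2462 counts of Rn7sk against 311350 to 529377 of Lars2 (Lars2-rich). Each group thus had 1 library of the first kind among 3, and library kind was a term in each edgeR test given here. With that term the biological coefficient of variation between libraries was 0.395, and without it 0.671. Levels below are CPM, counts scaled to a common library size by TMM. A gene passed where edgeR's quasi-likelihood test gave a p under 0.05 after Benjamini-Hochberg adjustment across the 16226 genes tested, and differences are log2 fold changes of K14-OPN against WT. The libraries were epidermal by their keratins. Krt14, a basal keratin, was at 11108, 23217 and 24949 CPM in K14-OPN 1 to 3 and at 11029, 16996 and 4744 CPM in WT 6 to 8, and Krt10, a suprabasal keratin, was at 4538, 6350.1 and 7728 and at 14886, 11875 and 5362 CPM. The summed level of 18 skeletal muscle genes was at most 16.8 CPM in K14-OPN and 14.3 CPM in WT.

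Spp1 itself did not pass the test. Its level was 952, 404 and 426 CPM in K14-OPN 1, 2 and 3 and 341, 485 and 16.8 CPM in WT 6, 7 and 8. The 4 Lars2-rich libraries overlapped between the groups, and the spread in the pair of 7SK-rich libraries was wide, with K14-OPN 1 the highest and WT 8 the lowest of the 6. The log2 fold change was 1.53 ± 0.94 (SE, adjusted p = 0.597), with a 95% interval of -0.51 to 3.57, so neither equal levels nor a several-fold difference lay outside it. An exact two-sided permutation test over the 6 libraries gave p = 0.3 in a design whose smallest possible value is 0.1. The fold change rested on the 7SK-rich pair: it was 0.39 without K14-OPN 1 and 0.36 without WT 8. Only a fit without a filter on low counts made Spp1 pass, at 1.56 (adjusted p = 3.11e-07). Among the Lars2-rich libraries alone the difference in log2 CPM was 0.03, against 5.81 in the 7SK-rich pair. OPN-null libraries held 3.33, 9.26, 2.2 and 2.31 CPM of Spp1 in libraries 13 to 16, below each of the K14-OPN and WT libraries, and K14-OPN exceeded OPN-null by 7.46 on the log2 scale (adjusted p = 0.0225, edgeR).

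In all, 343 of the 16226 genes tested passed (2.11%), of which 300 rose in K14-OPN (1.85%) and 43 fell (0.265%). At an unadjusted p below 0.05 there were 1961. The rises were large, with a median log2 fold change of 2.54 over the 300 genes and 203 genes at 2 or more, and the falls smaller, with a median of -1.39 and 3 genes at -2 or lower. Over all genes tested the median was -0.06. The 3 K14-OPN libraries lay apart from the 3 WT libraries for 232 of the genes that rose and 19 of those that fell, while 8.05% and 5.31% of all tested genes lay apart in those directions. Each of the 343 genes differed in the same direction in the Lars2-rich libraries and in the 7SK-rich pair, as did 64.54% of all genes. The 343 genes were chosen by their values in these same libraries, which by itself raises both of these shares. The calls depended on single libraries. Without K14-OPN 2 or without WT 7, 0 genes passed, and 1 passed without WT 6. The number was 65 without WT 8, 137 without K14-OPN 3 and 167 without K14-OPN 1. In each of these fits all 343 kept their direction and an unadjusted p below 0.05 (edgeR). These fits reuse most of the libraries that chose the 343 genes, so this is no independent check. Markers of neutrophils moved with the comparison, and when their mean level was added as a covariate 0 genes passed (edgeR, 881 at an unadjusted p below 0.05). That mean followed genotype and includes some of the genes that rose, so this fit cannot say what the calls rest on. In that fit the median log2 fold change of the 300 genes that rose was 0.38, 269 of the 343 kept their direction and 59 had an unadjusted p below 0.05. In such bulk samples fewer cells of a type and less RNA per cell cannot be told apart, nor can more of either.

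**Figure D1:**
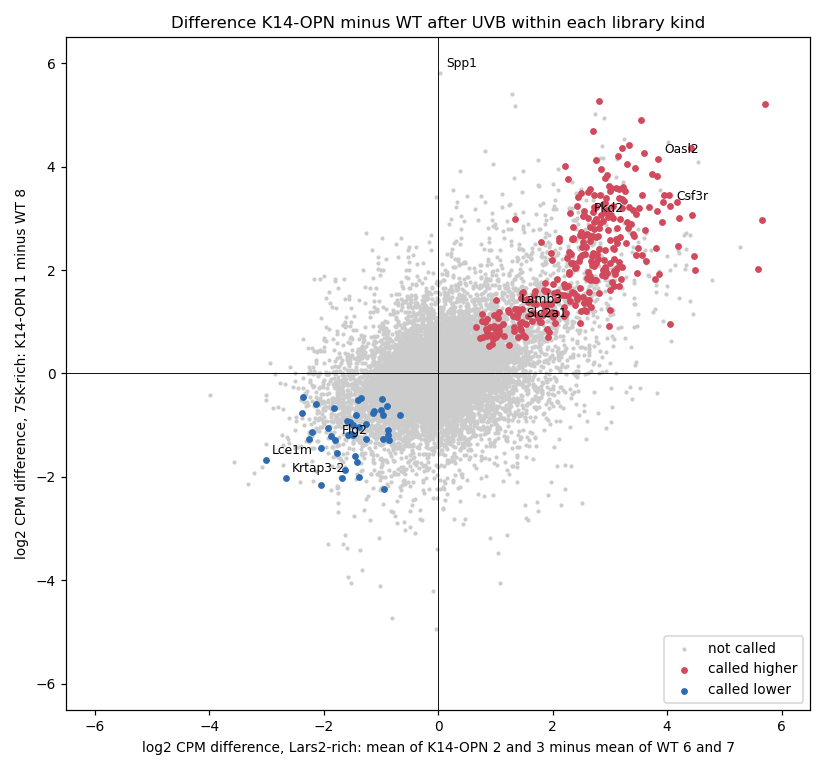
Difference between K14-OPN and WT after UVB in log2 CPM, for each of the 16226 tested genes, within the Lars2-rich libraries (x axis, mean of K14-OPN 2 and 3 minus mean of WT 6 and 7) and within the 7SK-rich pair (y axis, K14-OPN 1 minus WT 8). The 300 genes that rose lie in the upper right and the 43 that fell in the lower left, while Spp1 lies at 0.03 on the x axis and 5.81 on the y axis.

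The 12 largest rises among the genes that met the rule for naming, given below, included receptors of myeloid cells and interferon-induced proteins. Csf3r, the receptor for granulocyte colony-stimulating factor, was at 55.8, 188 and 128 CPM in K14-OPN 1 to 3 and at 9.91, 8.59 and 5.79 CPM in WT 6 to 8, a log2 fold change of 3.78 ± 0.44 (SE, adjusted p = 0.0124). Every K14-OPN library was above every WT library, and K14-OPN 1 was the lowest of its group. Ly6c2, a surface protein of inflammatory monocytes, was at 6.11, 17.9 and 41.7 against 1.98, 2.48 and 0.061 CPM, a log2 fold change of 4.44 ± 1.04 (SE, adjusted p = 0.0499). Slfn4, a Schlafen family gene of myeloid cells, was at 82.5, 122 and 142 against 7.04, 5.15 and 3.9 CPM, with 4.41 ± 0.80 (SE, adjusted p = 0.0194). Both genes are known from myeloid cells of mice, and for both the groups did not overlap. Tlr7 and Tlr13, endosomal receptors for RNA, rose by 4.19 and 3.87 on the log2 scale. Zbp1, a sensor of Z-form nucleic acids, rose by 4.17 and Oasl2, of the oligoadenylate synthetase family, by 4.02. The activating CD300 family receptor gene Cd300lb rose by 4.22 and its relative Cd300c2 by 3.78. Plac8, a small cysteine-rich protein of leukocytes, rose by 4.20, Dennd3, an exchange factor for a Rab GTPase, by 4.10, and Cxcl10, a chemokine for T cells, by 3.91. The adjusted p of these 12 genes lay between 0.0124 for Csf3r and 0.0499 for Ly6c2. Many of them were barely counted in WT. Over the 3 WT libraries Tlr7 had 11 counts, Cd300lb 15, Zbp1 19, Dennd3 22, Cd300c2 27, Plac8 29 and Ly6c2 34. The others had more, with 45 for Tlr13, 60 for Cxcl10, 93 for Oasl2, 162 for Slfn4 and 240 for Csf3r. Where WT counts were that low, the size of the fold change is uncertain.

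**Figure D2:**
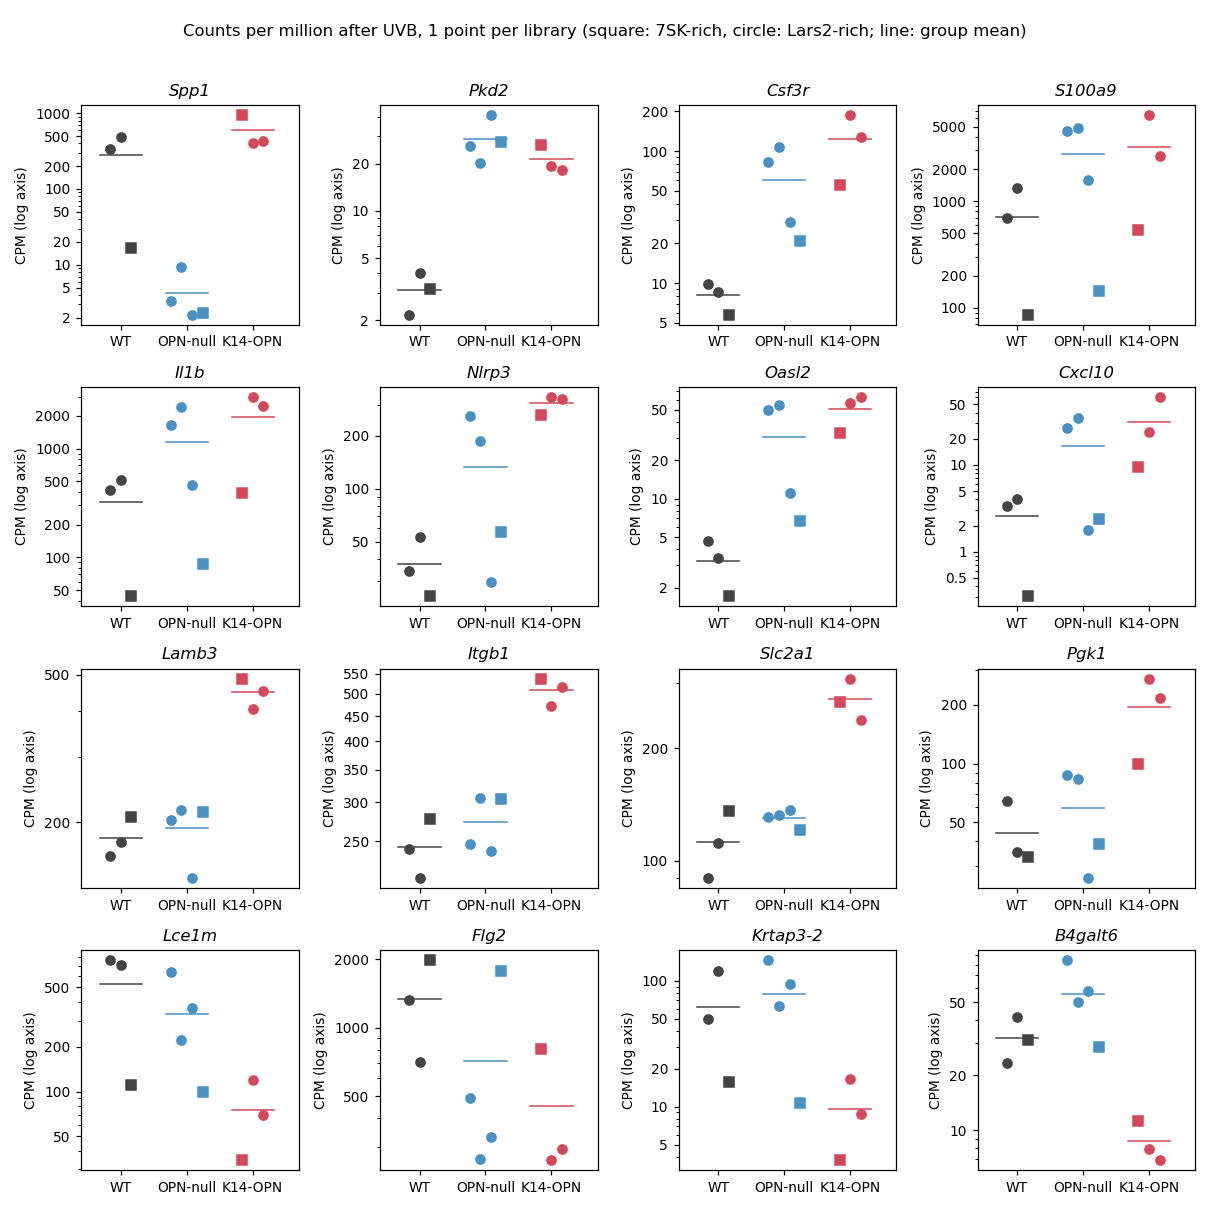
CPM on a log axis for 16 genes in each of the 10 irradiated libraries, by genotype, with squares for 7SK-rich and circles for Lars2-rich libraries and a line at each group mean. Csf3r, Nlrp3 and Oasl2 lie higher in all 3 K14-OPN libraries than in all 3 WT libraries and spread widely in OPN-null, Lamb3, Itgb1 and Slc2a1 lie higher in K14-OPN than in both other groups, and Pkd2 is high in K14-OPN and OPN-null alike.

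Genes shared by all leukocytes rose together. Of 15 such genes, a list assembled after the values had been seen, 11 rose and 0 fell, with a median log2 fold change of 2.77. Ptprc, the leukocyte phosphatase CD45, was at 50.4, 118 and 96.3 CPM in K14-OPN and at 12.3, 12.2 and 12.4 CPM in WT, a log2 fold change of 2.67 ± 0.45 (SE, adjusted p = 0.0159). WT libraries were nearly equal to each other, and the lowest K14-OPN library was several-fold above them. Lcp1, an actin-bundling protein of leukocytes, rose by 2.81, Plek, a protein kinase C substrate, by 2.85, Srgn, the granule proteoglycan serglycin, by 3.07 and Cd53, a tetraspanin, by 2.88. Summed over the 15 genes the level was 634 to 4356 CPM in K14-OPN and 127 to 650.2 CPM in WT, with the highest WT value just above the lowest K14-OPN value.

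Neutrophil markers were uneven. Of 15 tested members of an 18-gene list, 5 rose, 0 fell and 15 had a positive difference, with a median of 2.13. S100a9, a calcium-binding alarmin that makes up much of the neutrophil cytosol, was at 531, 6445 and 2676 CPM in K14-OPN and at 691, 1331 and 86.3 CPM in WT, with 2.35 ± 0.49 (SE, adjusted p = 0.0326). Within each library kind K14-OPN was higher, but the 7SK-rich K14-OPN 1 was below WT 6 and WT 7, so the groups overlapped. Its partner S100a8 rose by 2.13, and the C-type lectin receptors Clec4e and Clec4d rose by 3.05 and 2.74. S100a9 and S100a8 are also on the list of wound and hyperproliferation keratinocyte genes. Of its 27 tested members 2 rose, these same genes, and 0 fell, with a median of 0.31. Which cells their transcripts came from was not tested. The defining surface marker Ly6g stayed near 0, at 0.0637, 2.7 and 2.81 CPM in K14-OPN and 0.198, 1.53 and 0 CPM in WT, Camp and Ngp were at most a few CPM, and Trem1 and Trem3 had no count in any of the 10 irradiated libraries. The widely expressed genes Jund, Gstp1 and mt-Co3 were also listed at 0 in all 10, so a 0 throughout this table need not mean that a gene was silent. The summed level of the list was 1552 to 12541 CPM in K14-OPN and 298 to 2617 CPM in WT, and both ranges overlapped.

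Macrophage and monocyte markers rose in 8 of 19 tested members, with 0 falling and a median of 2.03. Cd14, the lipopolysaccharide co-receptor, was at 313, 2463 and 2032 CPM in K14-OPN and 295, 299 and 35.4 CPM in WT, with 3.00 ± 0.47 (SE, adjusted p = 0.0129). K14-OPN 1, the lowest of its group, was still above every WT library. Lyz2, the lysozyme of macrophages, was at 37.5, 210.2 and 179 against 17.8, 24.8 and 10.4 CPM, with 2.80 ± 0.60 (SE, adjusted p = 0.0347). Arg1, the arginase of alternatively activated macrophages, rose by 1.81, Csf1r, the receptor for macrophage colony-stimulating factor, by 1.23, and Ms4a7, a tetraspan protein of macrophages, by 3.38. Nos2, the inducible nitric oxide synthase, had 455 counts over the 3 K14-OPN libraries and 0 over the 3 WT libraries, which with a floor of 3 counts over the WT group is at least 79.1-fold higher. Adgre1, which encodes F4/80, was at 9.42, 8.03 and 12.3 against 1.68, 3.44 and 3.05 CPM and Itgam, which encodes CD11b, at 6.62, 79.8 and 52.2 against 7.73, 18.1 and 1.83 CPM, and neither passed (adjusted p = 0.0848 and 0.0789, edgeR). Summed, the 20 genes were at 564 to 3289 CPM in K14-OPN and 131 to 489 CPM in WT, without overlap.

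The machinery of phagocytes moved with these markers. Among the subunits of the NADPH oxidase and the tyrosine kinases that switch it on, also listed after the values had been seen, 9 of 10 rose and 0 fell, with a median of 2.65. Syk, a kinase downstream of immune receptors, was at 64.4, 153 and 98 CPM in K14-OPN and 18.5, 18.1 and 18.2 CPM in WT, with 2.44 ± 0.41 (SE, adjusted p = 0.0159). Lyn, a Src family kinase gene, rose by 2.97. For both genes all K14-OPN libraries were above all WT libraries.

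Among 27 tested receptors for microbial products and chemoattractants, also listed with the values known, 20 rose and 0 fell, with a median of 2.95. Nlrp3, the sensor of the inflammasome that matures interleukin 1β, was at 260.5, 332 and 323 CPM in K14-OPN and at 34.2, 53.6 and 24.6 CPM in WT, with 3.09 ± 0.58 (SE, adjusted p = 0.0222). Its K14-OPN levels were close to each other in both library kinds, and all were above WT. Cxcr4, the receptor for Cxcl12, was at 20.4, 123 and 70.8 against 5.85, 6.3 and 2.56 CPM, with 3.63 ± 0.43 (SE, adjusted p = 0.0124). Mefv, which encodes the inflammasome protein pyrin, rose by 3.68, Ccr1, a chemokine receptor of monocytes and neutrophils, by 3.29, Tlr4, the lipopolysaccharide receptor, by 3.08 and C5ar1, a receptor for complement C5a, by 2.98.

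Of 26 tested cytokines and chemokines 11 rose and 0 fell, with a median of 1.01. Il1b was at 387, 2995 and 2468 CPM in K14-OPN and at 419, 515 and 43.8 CPM in WT, with 2.78 ± 0.49 (SE, adjusted p = 0.0179). K14-OPN 2 and 3 were the highest, K14-OPN 1 lay just under WT 6 and WT 7, and WT 8 was the lowest, so the groups overlapped across library kinds. Neutrophil chemokines rose, Cxcl1 by 1.33, Cxcl2 by 2.59 and Cxcl3 by 2.33, as did the monocyte chemokines Ccl3 by 3.36 and Ccl4 by 2.83. Csf3, the ligand of the receptor named above, was at 10.5, 86.8 and 75 against 14.8, 16.4 and 1.58 CPM, with 2.51 ± 0.53 (SE, adjusted p = 0.0326). Tnf rose by 2.02. The keratinocyte alarmin Il33 was at 291, 396 and 499 against 168, 277 and 138 CPM, with 1.04 ± 0.22 (SE, adjusted p = 0.0324), and did not overlap between the groups. Il24, an interleukin 10 family cytokine of wounded keratinocytes, rose by 0.98.

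Interferon-stimulated genes rose in 11 of 29 members, 0 fell and 28 had a positive difference, with a median of 2.73. Oasl2 was at 32.6, 56.2 and 63.3 CPM in K14-OPN and 4.66, 3.44 and 1.71 CPM in WT, with 4.02 ± 0.57 (SE, adjusted p = 0.0124). Isg15, a ubiquitin-like modifier, was at 14.7, 128 and 153 against 19.9, 23.1 and 2.19 CPM, with 2.73 ± 0.57 (SE, adjusted p = 0.0316), and K14-OPN 1 lay below WT 6 and WT 7. Gbp2, an interferon-induced GTPase, rose by 3.12, Oas3, an oligoadenylate synthetase, by 3.32 and Irf7, the transcription factor that amplifies type I interferon, by 2.71. Ifit3b, an RNA-binding antiviral protein, had 305 counts in K14-OPN and 2 in WT, a ratio of 79.6 with a 95% counting interval of 21.8 to 660.0 that covers counting error only, and reads shared with its near-identical neighbour Ifit3 could move it. Irf9, a transcription factor of the interferon response, was at 29.1, 42.5 and 55 against 56.1, 43.5 and 38.1 CPM and did not pass (adjusted p = 0.893, edgeR). Rsad2, an antiviral enzyme, had wide differences, at 49.6, 208 and 364 against 26.4, 51.7 and 1.46 CPM, and did not pass (adjusted p = 0.06).

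Interferon-stimulated genes are known for a promoter element with the core GAAANNGAA, which reads TTCNNTTTC on the other strand. RefSeq promoter windows of GRCm38.p6, each 250 bases before to 50 after a start, were found for 20 of the 29 listed genes and 14 of these held the core on either strand, overlapping matches allowed (70.0%), as did 5 of 7 matched genes that rose (71.4%). Of all 27025 genes with a window 2638 held it (9.76%). Matches before the start are shown for Isg15, Oas3, Gbp2 and Ifit3b, because these genes rose together, and not for every gene with the core. They are given on the strand of the gene with the matched letters in capitals.
Isg15, chr4:156200872-156200900, minus strand, 3 overlapping matches: gtagGAAAAGGAAACCGAAACAGAAaata
Oas3, chr5:120777713-120777741, minus strand, 2 overlapping matches: gggaggaGAAAACGAAAGTGAAgggaggt
Gbp2, chr3:142620595-142620623, plus strand: ctcttttagtTTCACTTTCactgtcttaa
Ifit3b, chr19:34607760-34607788, plus strand: agtggtaagtTTCACTTTCctcttctggt
Ifit3b, chr19:34607794-34607822, plus strand: ttaagtctgtTTCAGTTTCtactttcctc
Ifit3b, chr19:34607813-34607841, plus strand: tactttcctcTTCCCTTTCacaaacactg
Of the matches shown, the one nearest a start lay 50 to 58 bases before that of Gbp2, and the Isg15 run 58 to 78 bases before its start. A second motif, the PU.1 box GAGGAAGT (ACTTCCTC on the other strand), named for a transcription factor of myeloid cells, was in the windows of 19 of 236 matched genes that rose (8.05%), 1 of 36 that fell (2.78%) and 406 of 10875 tested genes with a window (3.73%). A match is a description of the letters and not of binding.

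**Figure D3:**
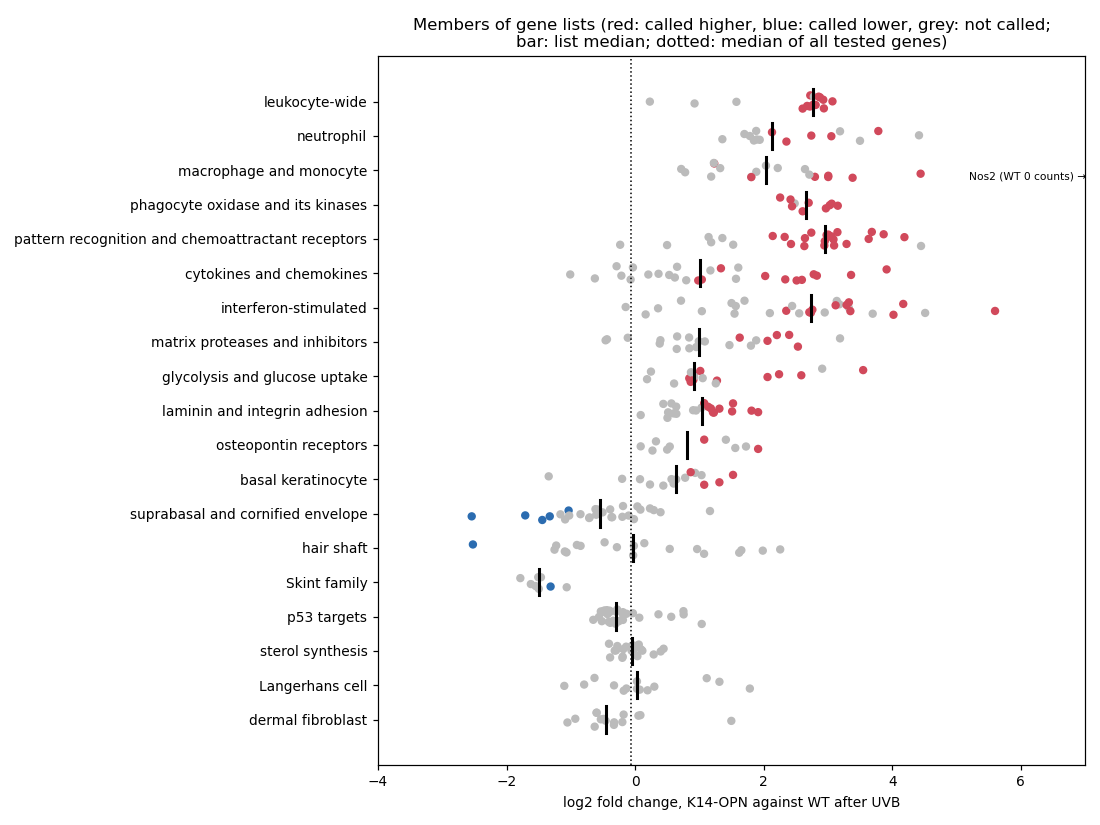
Log2 fold change of K14-OPN against WT after UVB for each tested member of 19 gene lists (x axis), coloured by whether it rose, fell or did not pass, with a bar at the list median and a dotted line at the median of all genes, -0.06. Leukocyte-wide, neutrophil, oxidase, receptor and interferon lists have medians between 2.13 and 2.95, glycolysis and adhesion lists sit near 1, and Nos2 lies beyond the axis because WT had 0 counts.

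Genes of glucose uptake and glycolysis rose in 11 of 19 members, 0 fell and 19 had a positive difference, with a median of 0.92; this list too was assembled after the values had been seen. Slc2a1, the glucose transporter GLUT1, was at 266, 307 and 239 CPM in K14-OPN and at 89.9, 112 and 136 CPM in WT, with 1.27 ± 0.19 (SE, adjusted p = 0.0128). Pgk1, phosphoglycerate kinase, was at 99.3, 272 and 216 against 64.1, 35.5 and 33.1 CPM, with 2.06 ± 0.39 (SE, adjusted p = 0.024). Neither overlapped between the groups in any library kind. Gpi1, glucose phosphate isomerase, rose by 0.91, Slc16a3, the lactate exporter MCT4, by 2.58, and Slc2a3, the transporter GLUT3 of leukocytes and neurons, by 3.55. Gapdh was at 242, 393 and 304 against 178, 124 and 92.5 CPM and did not pass (adjusted p = 0.0764). Vegfa, an angiogenic factor chosen for mention after its values were seen, was at 82.6, 111 and 99.2 against 32.6, 34.9 and 41 CPM, with 1.43 ± 0.20 (SE, adjusted p = 0.0124). With the neutrophil markers as a covariate the log2 fold change of Slc2a1 was 1.03, that of Gpi1 0.89, that of Vegfa 0.89, that of Pgk1 0.21 and that of Slc16a3 -0.18, and none passed in that fit.

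The laminin of the epidermal basement membrane anchors basal keratinocytes to the dermis and is bound by integrins. Of 21 tested genes for its chains, integrins and the proteins that link integrins to actin, a further list made after the values had been seen, 10 rose and 0 fell, with a median of 1.03. Lamb3, its β chain, was at 489, 405 and 453 CPM in K14-OPN and at 162, 176 and 206 CPM in WT, with 1.31 ± 0.19 (SE, adjusted p = 0.0124). All K14-OPN libraries exceeded all WT libraries, with little spread between library kinds. Lama3, its α chain, rose by 1.52. The basal keratin genes Krt14 and Krt5 had log2 fold changes of 0.93 and 0.78 and did not pass (adjusted p = 0.0906 and 0.0643), and 4 of 15 basal keratinocyte genes rose, Lamb3, Lama3, Itgb1 and the caveolin gene Cav1. With the neutrophil covariate the values were 0.70 for Lamb3, 0.21 for Lama3 and 1.07 for Cav1.

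Receptors of osteopontin overlapped with that group. Of 10 tested receptor genes 2 rose, 0 fell and 10 had a positive difference, with a median of 0.81. Itgb1, the integrin β1 chain, was at 537, 472 and 517 CPM in K14-OPN and 241, 209.8 and 277 CPM in WT, with 1.07 ± 0.17 (SE, adjusted p = 0.0129). Itga5, which pairs with it to bind fibronectin and osteopontin, was at 91.1, 76.8 and 76.3 against 18.6, 19.3 and 27.2 CPM, with 1.91 ± 0.34 (SE, adjusted p = 0.018). Both were separate between the groups in both library kinds. Itgav, the αv chain shared by several osteopontin receptors, was at 206, 88 and 94.2 against 76.5, 97 and 191 CPM and Cd44 at 683, 841 and 797 against 449.8, 612 and 519.9 CPM, and neither passed (adjusted p = 0.94 and 0.349, edgeR). Of 7 tested enzymes that cut or crosslink osteopontin, Tgm2, a transglutaminase, rose by 2.50 and Mmp12, the macrophage metalloelastase, by 1.63, and the other 5 did not pass.

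Of 21 tested matrix proteases and inhibitors 5 rose, among them Adam8, a metalloprotease of myeloid cells and wounds, which was at 219, 371 and 357 against 68.9, 61.5 and 69.9 CPM with 2.20 ± 0.39 (SE, adjusted p = 0.0185), and Plaur, the urokinase receptor, which rose by 2.53. Of 22 tested antioxidant genes under NRF2 only Slc7a11, the cystine importer, and Gsr, glutathione reductase, rose, by 2.30 and 1.55. Hdc, which makes histamine in mast cells and is also induced in neutrophils, rose by 3.22, the sole one of 5 tested mast cell genes to pass. The other 4 mast cell genes had negative differences, and the median of the 5 was -0.82. Tgfb1, which encodes a cytokine of wound repair, and Odc1, the first enzyme of polyamine synthesis, rose by 1.58 and 1.01, both named after their values were seen. Of 29 tested cell cycle genes 1 passed (Mcm5, a replication helicase subunit, 0.85), as did 1 of 24 EGFR ligands and immediate early genes (Ier3, 1.68), 1 of 19 clock genes (Nfil3, a repressor, 1.85) and 1 of 8 endothelial genes (Kdr, a receptor for VEGF, 3.68). With 2.11% of all genes passing, 1 call in the first 3 of these lists is near the background.

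Cornification genes were among those that fell. Of 28 members of the suprabasal and cornified envelope list 5 fell, 0 rose and the median was -0.55. The median was also -0.54 for OPN-null against WT, and it was 0.11 for K14-OPN against OPN-null. In that last comparison 1 member passed as higher and 1, Lce1m, as lower in K14-OPN. For K14-OPN against WT the median difference in log2 CPM was -0.67 in the Lars2-rich libraries and -0.14 in the 7SK-rich pair. The summed level of the list was 21156 to 34812 CPM in K14-OPN and 23732 to 65296 CPM in WT, and it overlapped. Lce1m, a late cornified envelope protein, was at 34.6, 119.9 and 69.4 CPM in K14-OPN and at 759, 713 and 110.3 CPM in WT, with -2.54 ± 0.39 (SE, adjusted p = 0.0129). Within each library kind K14-OPN was lower, but WT 8 lay within the K14-OPN range. Flg2, a filaggrin relative of the granular layer, was at 805, 262 and 295 against 1322, 711 and 1976 CPM, with -1.71 ± 0.33 (SE, adjusted p = 0.0246). Krt77, a keratin of sweat ducts and suprabasal skin, was at 3209.7, 2109.5 and 2399 against 9818, 6448 and 5127 CPM, with -1.45 ± 0.28 (SE, adjusted p = 0.0242), the sole one of the 5 whose groups did not overlap. Lce1l and Lor, the cornified envelope protein loricrin, had log2 fold changes of -1.33 and -1.04. Krt10 had -0.71 and did not pass (adjusted p = 0.188).

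Hair genes went both ways. Of 19 tested hair shaft genes 8 had a positive and 11 a negative difference, with a median of -0.03, and of 6 tested inner root sheath genes 3 were positive and 3 negative, with a median of 1.29. In each list 1 gene fell and 0 rose. Krtap3-2, a keratin-associated protein of the hair cortex, was at 3.76, 16.5 and 8.76 CPM in K14-OPN and at 49.5, 120.3 and 15.7 CPM in WT, with -2.52 ± 0.45 (SE, adjusted p = 0.018), the hair shaft gene that passed. Krt84, a hair keratin, was at 70.5, 18.9 and 17.7 against 44.4, 73.1 and 258 CPM, with -1.75 ± 0.23 (SE, adjusted p = 0.0124). Krt75, the keratin of the companion layer, named after its values were seen, was at 188, 141 and 116 against 297, 394 and 617 CPM, with -1.53 ± 0.25 (SE, adjusted p = 0.0129), and did not overlap. Tchhl1, a trichohyalin-like protein, fell by 1.49 on the log2 scale and was the inner root sheath gene that passed. Of that list, Krt71, a keratin of the inner root sheath, was at 0.828, 82.6 and 0.267 CPM in K14-OPN and 1.68, 0.382 and 0.549 CPM in WT, with 4.02 ± 1.56 (SE, adjusted p = 0.29). Krt27, a further such keratin, was at 1.15, 70.5 and 0.401 against 1.78, 0.955 and 0.488 CPM, with 3.75 ± 1.37 (SE, adjusted p = 0.255). Both were high in K14-OPN 2 alone of these 6 libraries, and neither passed. The summed level of the hair shaft list was 23 to 183 CPM in K14-OPN and 69.3 to 207 CPM in WT, and it overlapped.

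B4galt6, a lactosylceramide synthase, was at 11.3, 7.96 and 6.89 CPM in K14-OPN and at 23.2, 41.2 and 30.9 CPM in WT, with -1.85 ± 0.37 (SE, adjusted p = 0.0267), and the groups did not overlap. Prr9 and Lrrc20 fell by 1.86 and 1.75 on the log2 scale, also without overlap. The remaining large falls were in Fcgbp (-1.92), Tesc, which encodes the calcium-binding protein tescalcin (-1.89), Tnfrsf19, a TNF receptor family member of hair follicle stem cells (-1.69), Gprin2 (-1.69) and Dapl1 (-1.65). For OPN-null against WT these 5 genes had -1.28, -1.88, -0.96, -1.22 and -0.18, and Tesc had -0.01 for K14-OPN against OPN-null. Of 8 tested Skint genes, listed after the values had been seen and known in mouse for keratinocyte proteins that select epidermal γδ T cells, Skint5 fell (-1.32) and 8 had a negative difference, with a median of -1.50. The Skint median was -1.77 for OPN-null against WT and 0.22 for K14-OPN against OPN-null, so OPN-null was low as well.

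Pkd2, the polycystin-2 cation channel gene, starts 18400 bases past the end of Spp1 on chromosome 5 and set K14-OPN and OPN-null apart from WT alike. Its level was 26.5, 19.4 and 18.4 CPM in K14-OPN 1 to 3, 26.2, 20.4, 41.1 and 27.8 CPM in OPN-null 13 to 16 and 2.18 to 4.01 CPM in WT 6 to 8. Each of the 7 libraries with the null allele was several-fold above each WT library. The log2 fold change of K14-OPN against WT was 2.80 ± 0.34 (SE, adjusted p = 0.0124), that of OPN-null against WT was 3.26, and Pkd2 was the sole gene to pass in that second comparison (0.00616% of 16226). K14-OPN against OPN-null gave -0.46 (adjusted p = 0.389, edgeR). Of 159 tested genes within 10 Mb of Spp1 4 passed (2.52%, against 2.11% of all genes), which were Pkd2, Plac8, Antxr2, an anthrax toxin receptor, at 1.60 and Selplg, the P-selectin ligand, at 3.10.

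OPN-null libraries, which share the null allele with K14-OPN, spread widely for myeloid and interferon genes. Csf3r was at 82.1, 108, 29.3 and 20.9 CPM in OPN-null 13 to 16, and Il1b at 1645, 2427, 463 and 87.2 CPM. For both genes libraries 13 and 14 lay within the K14-OPN range. Libraries 15 and 16 lay within the WT range for Il1b. For Csf3r they lay below each K14-OPN library but above the highest WT library, at 9.91 CPM. Tested against OPN-null, K14-OPN differed in 141 genes (0.869%), 64 higher and 77 lower. The comparisons of K14-OPN with WT and with OPN-null share the K14-OPN libraries. Median log2 fold changes of OPN-null against WT were 1.59 leukocyte-wide, 1.59 neutrophil, 1.70 receptor, 1.81 interferon, 1.26 oxidase and 0.94 macrophage. Those of K14-OPN against OPN-null were 1.03, 1.11, 1.29, 0.98, 1.40 and 1.19. By the signs of these fitted log2 fold changes, OPN-null lay between WT and K14-OPN for 284 of the 300 genes that rose. It lay at or below WT for 13 and at or above K14-OPN for 3. Choosing genes by K14-OPN against WT itself favours a place between.

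Of the glycolysis list 9 of 19 members were higher in K14-OPN than in OPN-null at an adjusted p below 0.05, of the laminin and integrin list 3 of 21 and of the basal keratinocyte list 4 of 15. The glycolysis and the laminin and integrin lists were assembled after values of these same K14-OPN libraries had been seen. Their counts are therefore no independent evidence of a difference from OPN-null. Of the macrophage list 2 of 19 were, Csf1r and Arg1, and none of the leukocyte-wide, neutrophil, oxidase, receptor or interferon lists was. Slc2a1 was at 131, 132, 136 and 121 CPM in OPN-null 13 to 16, a difference from K14-OPN of 1.05 (adjusted p = 0.029). Lamb3 was at 202, 215, 141 and 213 CPM, with 1.20 (adjusted p = 0.0249), Itgb1 at 246, 306, 238 and 305 CPM, with 0.88 (adjusted p = 0.033), and Vegfa at 41.6, 39.8, 31.4 and 40.9 CPM, with 1.34 (adjusted p = 0.0225, edgeR). For these 4 genes each OPN-null library was below each K14-OPN library. Among the falls, B4galt6 was at 84.2, 50.3, 57.1 and 28.6 CPM in OPN-null, with -2.61 (adjusted p = 0.0249), Krt75 at 626, 383, 352 and 558 CPM and Krt84 at 81.7, 66.5, 51.1 and 223 CPM. Flg2 did not differ from OPN-null by the test (adjusted p = 0.288).

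**Figure D4:**
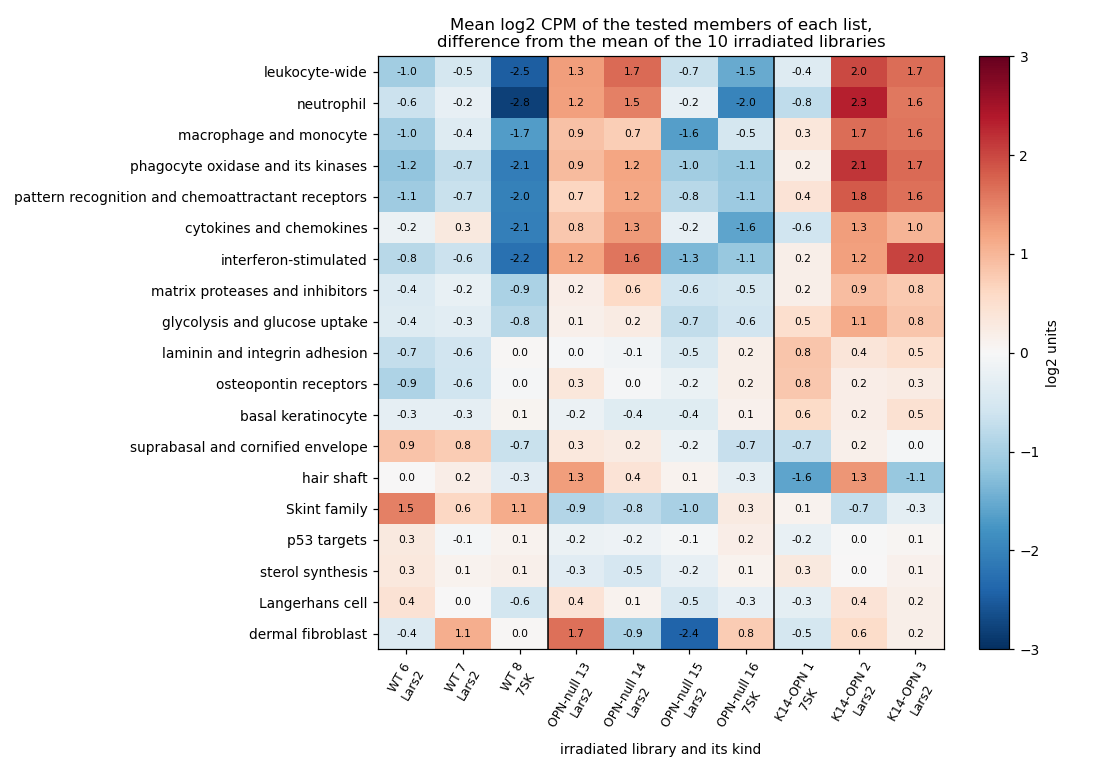
Mean log2 CPM over the tested members of 19 gene lists (rows) in each of the 10 irradiated libraries (columns), as the difference from the mean of the 10. The myeloid and interferon rows are high in K14-OPN 2 and 3 and OPN-null 13 and 14 and lowest in WT 8, while the laminin and integrin row is positive in all 3 K14-OPN libraries.

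Several groups gave no call. None of 31 p53 targets passed, with a median of -0.31, and none of 21 tested sterol synthesis genes, with -0.05. Langerhans cell genes (14 tested), dermal fibroblast genes (15 tested), sebaceous gland genes (14 tested) and melanocyte genes (3 tested) also gave 0 calls. The summed level of the fibroblast list was 211 to 473 CPM in K14-OPN and 190.1 to 632 CPM in WT. Haemoglobin and other erythrocyte genes summed to 19.2 to 845 CPM in K14-OPN, with K14-OPN 2 the highest, and to 39.6 to 103 CPM in WT, and none of 5 passed. The part of admixed blood in the myeloid values was not tested.

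Without UVB, 3 K14-OPN and 2 WT libraries gave 0 genes past the threshold in a fit of all 18 libraries (0% of 18910, edgeR, with 431 at an unadjusted p below 0.05). That same fit also gave 0 genes for K14-OPN against WT after UVB, with 843 at an unadjusted p below 0.05 (edgeR). The 343 genes came from the fit of irradiated libraries alone, so that number and this 0 are no contrast between exposures. The 300 genes that rose after UVB had a median log2 fold change of 1.82 without UVB, with 283 positive. Over all genes the median was 0.05 and 54.14% were positive. Without the unirradiated K14-OPN library 1, the median of the 300 genes was -0.17 and 112 were positive. The difference between the irradiated and the unirradiated contrast passed for 0 genes (edgeR, 307 at an unadjusted p below 0.05), so a difference by exposure was not shown. Of the 43 genes that fell, 21 had a negative difference without UVB, and their median there was 0.02, near the 0.05 of all genes. Slc2a1 had a log2 fold change of 1.24 and Lamb3 of 1.03 without UVB, and Lce1m of 0.69.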

How the data were processed

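For 18 libraries the authors deposited raw, whole-number counts of reads per gene in a single table. Per the submitters' processing notes, HTSeq 0.11.3 and STAR 2.7.5a were used with GRCm38, after Trim Galore 0.6.5 and bcl2fastq 2.18.0.12. Annotation release and strand setting: not given in the sources used here. Reads of overlapping or antisense genes may therefore be shared. Of 56246 gene identifiers 55144 matched a symbol in GENCODE M21. The 5 summary lines were left out. In the 6 libraries reads outside genes were 20.75 to 44% of all reads, reads with several alignments 15.74 to 26.78% and ambiguous reads 2.51 to 7.19%. No molecular identifiers were counted, so reads may repeat molecules, and floors and counting intervals cover counting error only.

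Analysis used R 4.3.3 and edgeR 4.0.16 (filterByExpr with a minimum count of 10 and total of 15, TMM, quasi-likelihood test, two-sided, Benjamini-Hochberg adjustment over all genes). The fit held the 10 irradiated libraries with 3 group means and library kind, so that the 4 OPN-null libraries inform the spread. A fit of all 18 libraries with 6 groups and kind gave the contrast without UVB and the difference by exposure. Fold changes use a prior count of 0.125. A fold against a group without counts is a bound, taken from 3 counts over that group. A pair of Lars2-rich libraries was checked in each irradiated group, and no checked pair agreed within sampling noise (chi-square per degree of freedom 45.8 to 122). Other pairs were not checked, and all libraries were counted. The fit was tested on simulated counts with known changes. Alternatives were RLE scaling, DESeq2 1.42.0, limma 3.58.1 with quality weights, no filter, other sets of libraries, covariates and leaving out each library.

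The comparison, the 32 gene lists, the tests and the alternatives were chosen with earlier results of these data known, and 6 further lists after the values of this comparison were seen. The text names Spp1 and, in each direction, the 12 genes with the greatest change that passed, had a log2 fold change of 1 or more in size and a mean log2 CPM of 1 or more, were separate between groups in the Lars2-rich libraries, differed the same way between the 7SK-rich libraries and carry a named symbol. It also names up to 4 members a list by smallest p, the genes that passed within 10 Mb of Spp1, and further list members and genes named for their values. A few genes that the rule names are not reported here.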

Additional observations from a re-analysis of the deposited data

Results flagged for a closer look

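Over Spp1 and the 24 genes named for the size of their change, the 4 irradiated OPN-null libraries were examined for a single library far from the other 3, a rule that chance meets in about 1 in 20 groups and that 2 of the 25 genes met. Spp1 was at 9.26 CPM in OPN-null 14, against 2.2 to 3.33 CPM in the other 3 libraries, all of them far below the WT libraries 6 and 7. Flg2 was at 1770.3 CPM in OPN-null 16, against 265.8 to 492 CPM in the others. OPN-null 16 is the 7SK-rich library of its group, and the highest Flg2 level of WT and of K14-OPN was likewise in the 7SK-rich library.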

How the results depend on the processing

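The number of genes that passed in K14-OPN against WT after UVB depended on the model. Against 343 genes it was 311 with RLE scaling, 393 with a dermal fibroblast covariate and 343 without Rn7sk, Lars2 and mitochondrial genes. It was 825 in DESeq2, 1228 in limma with quality weights, 928 without a filter on low counts, 941 in a fit of only the 6 libraries, 31 in the Lars2-rich libraries only (27 of them among the 343), and 0 in a fit of all 18 libraries, without the library kind term or with the neutrophil covariate, which was added after seeing the data. Leaving out 1 library gave 0 to 627 genes, the highest without OPN-null 15. With the neutrophil covariate the median log2 fold change of the 300 higher genes was 0.38, against 2.54. In the other fits all of the 343 genes that were tested kept their direction, and in the all-library fit and without the kind term 266 and 294 had an unadjusted p below 0.05. All of these fits reuse libraries that chose the 343 genes. Spp1 passed only without the filter on low counts (1.56, adjusted p = 3.11e-07), and over all alternatives its log2 fold change was 0.00 to 2.36 and its adjusted p 3.11e-07 to 1. The cause of these differences was not tested.

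With the neutrophil covariate 18 of 112 named genes changed sign: Ly6c2 (-0.016), Selplg (-0.069), S100a9 (-0.12), Ier3 (-0.27), Plaur (-0.056), Clec4d (-0.37), Lyz2 (-0.37), Lyn (-0.14), Slc16a3 (-0.18), Itgam (-1.22), Rsad2 (-0.79), Nlrp3 (-0.18), Cxcl2 (-0.12), Csf3 (-0.45), Tnf (-0.39), Isg15 (-0.38), Irf7 (-0.075) and Slc2a3 (-0.27). S100a9 and Clec4d are members of the list whose mean was the covariate, so their values in that fit were partly set by that choice. Itgam is likewise a marker of myeloid cells. The covariate moved with genotype, and the SE of Spp1 was 2.27 in that fit against 0.94 in the main fit. Itgav, which did not pass, was -0.080 without K14-OPN 1 and -0.027 without WT 6, and 0.078 to 0.23 without each of the others. Without UVB the count was 44 without a filter on low counts and 0 under the other alternatives, and the difference by exposure was 0 in each, including the fit with a replicate block for K14-OPN (0 genes). No paired analysis was possible because the K14-OPN and WT libraries after UVB share no replicate number. The 6 libraries of the comparison and their depth limit what could pass: at 3 against 3 a single value cannot reach an exact p under 0.1.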
